A study of Mus musculus with 8 samples.

Results

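Ano1 and 7 further genes of chloride transport (Ano6, Ano10, Slc12a2, Slc26a7, Clcn2, Clcn3 and Clic4) were followed across 8 arrays. All RNA came from small intestine, and the mice were of strain BALB/c and 6 to 9 days old. They are 8 of the 18193 genes measured. Only probe sets that name a single gene were used, and where a gene has several, the brightest on average is its main one. There were 3 groups: 3 samples of ICC-DMP, 3 of ICC-MY, and 2 of tunica muscularis, which is the gut's coat of smooth muscle with its nerves. No genotype or treatment is named for any group. ICC is read here, as in the field, as interstitial cells of Cajal, with DMP for the deep muscular plexus and MY for the myenteric plexus. The labels print the abbreviations only, and the sources used here do not say how cells were isolated or animals pooled. All values are log2 expression, so a difference of 1 is 2-fold. Levels of different genes come from different probes and cannot be ranked against each other.

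Interstitial cells of Cajal generate the electrical slow waves of gut muscle and relay signals from motor nerves. A release of stored calcium opens ANO1, a calcium-activated chloride channel of the plasma membrane, and chloride leaving the cell depolarises it. The current is inward only while the cell holds chloride above its equilibrium level. That store is filled by cotransport of sodium, potassium and chloride through NKCC1, the product of Slc12a2, and anion exchangers and chloride channels also move chloride across the same membrane.

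Both classes of cell carried the marker that defines them. Kit, the receptor tyrosine kinase of these cells, read 11.07, 11.34 and 10.84 in ICC-DMP, 10.81, 12.42 and 11.99 in ICC-MY, and 7.20 and 8.43 in tunica muscularis. The list of ICC markers, 8 of them measured, may rest on profiles of such cells. Against tissue 3 were called as higher in ICC-DMP (3.72% of all genes were) and 6 in ICC-MY (4.05%). In either class 0 were lower (7.32% and 9.78% of all genes were). Prkcq, Edn3, Cacna1h, Cd44 and Gja1 were not called in ICC-DMP against tissue (-0.06, 0.02, -0.79, 0.64 and 0.66). In ICC-MY, Thbs4 and Gja1 were not called (0.9 and 0.83). Between the classes, 4 of the 8 were lower in ICC-DMP (3.30% of all genes were) and 1 was higher (5.36%). The higher one was Thbs4, above ICC-MY by 2.71 and above tissue by 3.61 in ICC-DMP. The mean over 10 smooth muscle markers ran from 9.32 to 9.55 in ICC-DMP, from 6.78 to 7.45 in ICC-MY, and from 10.01 to 10.89 in tissue. Over 9 enteric neuron markers it ran from 3.97 to 4.08, from 4.13 to 4.18, and from 8.27 to 8.59 in the same order of groups, and over 10 intestinal epithelial markers from 3.62 to 3.67, from 3.59 to 3.83, and from 4.80 to 6.42. Values spread less widely on the first ICC-MY array and the first tissue array (SD of all values 1.98 and 2.06; the other arrays had 2.22 to 2.31), which are called the narrow-range arrays. On both, the mean of 9 hybridization spike-in probe sets was also low (7.95 and 7.63, against 8.34 to 9.87). The actin control's 3′ minus 5′ difference was largest on the third ICC-DMP array (4.662) and the third ICC-MY array (4.279). On the other arrays it ran from 2.535 to 3.534, and its part in the values was not tested.

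The promoters of 3 of the members with a promoter sequence available are shown. Ano1 and Ano10 are the members most alike over the arrays, and Clic4 is among those whose ICC-DMP arrays all lie above the ICC-MY arrays. Each sequence is the 250 bases before the RefSeq transcript start (GRCm38.p6, minus strand, written 5′ to 3′ along the gene), and capitals mark the GC box, GGGCGG or its complement CCGCCC. They lie at chr7:144738574-144738823 (Ano1), chr9:122294424-122294673 (Ano10) and chr4:135272761-135273010 (Clic4).
Ano1: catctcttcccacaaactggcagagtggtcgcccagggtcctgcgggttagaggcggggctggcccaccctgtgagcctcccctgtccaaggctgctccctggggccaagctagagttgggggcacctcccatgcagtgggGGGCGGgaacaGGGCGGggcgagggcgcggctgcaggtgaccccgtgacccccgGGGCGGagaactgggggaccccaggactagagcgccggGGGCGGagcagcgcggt
Ano10: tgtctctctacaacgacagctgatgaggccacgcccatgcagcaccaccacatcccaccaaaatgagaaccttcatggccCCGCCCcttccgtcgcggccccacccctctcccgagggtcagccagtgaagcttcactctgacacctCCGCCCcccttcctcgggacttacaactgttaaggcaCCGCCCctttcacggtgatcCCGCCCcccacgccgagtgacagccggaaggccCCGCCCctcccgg
Clic4: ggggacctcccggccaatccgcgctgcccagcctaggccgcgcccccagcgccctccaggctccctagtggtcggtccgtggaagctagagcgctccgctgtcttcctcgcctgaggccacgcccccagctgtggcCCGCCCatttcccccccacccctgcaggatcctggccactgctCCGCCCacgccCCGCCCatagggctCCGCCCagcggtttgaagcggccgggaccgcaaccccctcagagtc

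The Ano1 window held 4 GC boxes, the Ano10 window 5 and the Clic4 window 4, and 32.7% of 32851 such windows of all genes held at least 1. Their GC content was 72%, 65.2% and 73.2%, against a median of 52.4%. The ETS core CGGAAG (or CTTCCG) had 2 matches in the Ano10 window, 0 in that of Ano1 and 0 in that of Clic4, with 13.6% of all windows holding it. The palindromic E-box CACGTG (6.02% of windows) and the TATA box TATAAA (or TTTATA; 12.4%) were in 0 of the 3. Matches of different motifs did not overlap. A match is a run of letters in this window and not a measured binding site. Windows were available for 6 of the 8 members, and not for Slc12a2 and Slc26a7.

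Set against the muscle coat, ICC-DMP had 3 members higher and 0 lower by limma at an adjusted p under 0.05, where 11.0% of all genes were called (3.72% higher and 7.32% lower). ICC-MY had 2 higher and 1 lower, with 13.8% of all genes called (4.05% higher and 9.78% lower). The mean of both classes had 1 higher and 0 lower, with 13.0% called (3.69% higher and 9.32% lower). In ICC-DMP against ICC-MY 1 member was higher and 1 lower, with 8.67% of all genes called (976 genes or 5.36% higher, and 601 or 3.30% lower). With the replicate number as a block 2617 genes were called there in place of 1577, and after quantile normalization 1282 were higher and 1275 lower. The members differ in kind: Ano1 was high in both classes, Slc26a7 in ICC-DMP and Slc12a2 in ICC-MY.

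Arrays that do not overlap were common among all genes. Every ICC-DMP array lay above both tissue arrays for 4 members (15.5% of all genes) and below for 0 (23.1%), and every ICC-MY array above for 3 (13.4%) and below for 1 (20.7%). All 6 ICC arrays lay above both tissue arrays for 2 members (6.23%) and below for 0 (13.7%). The ICC-DMP arrays lay wholly above the ICC-MY arrays for 3 members (13.9%) and below for 1 (11.7%). The median difference of the 8 members was 0.59 in ICC-DMP, 0.26 in ICC-MY and 0.64 in their mean against tissue, beside medians of -0.04, -0.02 and -0.02 over all genes.

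**Figure D1:**
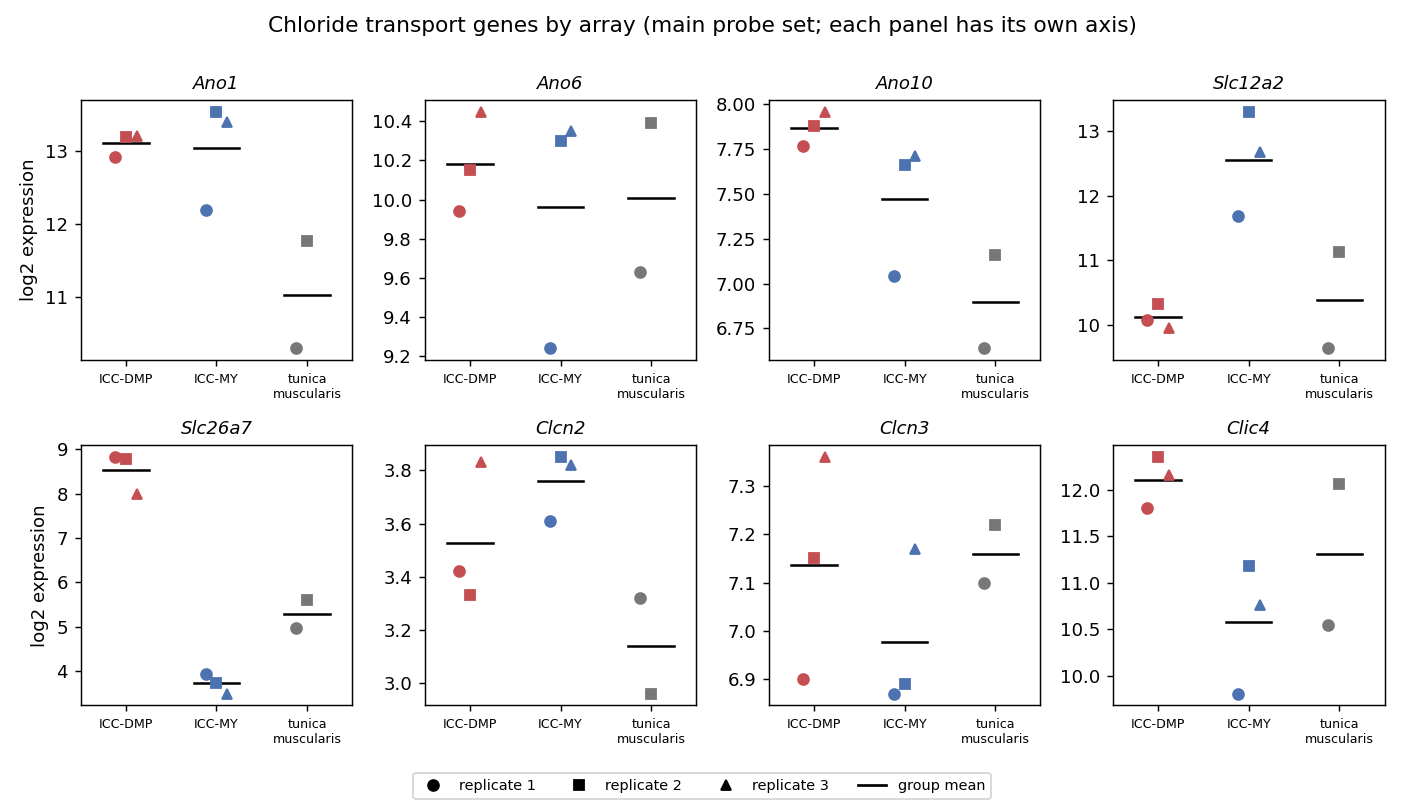
Log2 expression (vertical axes, one scale per panel) of the 8 genes on each array of ICC-DMP, ICC-MY and tunica muscularis; symbols mark the replicate number and black bars the group mean. Slc26a7 lies between 8.0 and 8.82 in ICC-DMP, between 3.49 and 3.94 in ICC-MY and at 4.98 and 5.61 in tissue, while Slc12a2 is highest on the 3 ICC-MY arrays.

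Ano1 was high in both classes. Its main probe set read 12.92, 13.20 and 13.22 in ICC-DMP, 12.20, 13.55 and 13.41 in ICC-MY, and 10.29 and 11.76 in tunica muscularis. All 6 ICC arrays lay above both tissue arrays, and the ranges of the ICC classes overlapped. Ano1 was 4.25-fold higher in ICC-DMP than in tissue (log2 difference 2.09, SE 0.49, adjusted p = 0.0305) and 4.07-fold higher in ICC-MY (2.03, SE 0.49, adjusted p = 0.0287). The dimmer Ano1 probe set, 1426571_at, read 9.63, 10.16 and 9.44 in ICC-DMP, 9.69, 11.15 and 10.49 in ICC-MY, and 7.18 and 7.70 in tissue. It gave larger differences, 2.31 (SE 0.41, adjusted p = 0.00686) for ICC-DMP and 3.0 (SE 0.41, adjusted p = 0.00191) for ICC-MY, and the 2 probe sets correlated at r = 0.911 over the 8 arrays. The ICC values of the main probe set lie near the top of the arrays' range, whose maxima ran from 13.70 to 14.02. The part of this in its smaller differences was not tested. Tissue also contains ICC, and in bulk samples fewer cells of a type and less RNA per cell cannot be told apart.

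Between the ICC classes Ano1 was not shown to differ. The main probe set gave 0.06 (SE 0.44, adjusted p = 0.972) for ICC-DMP minus ICC-MY, and the dimmer one -0.70 (SE 0.36, adjusted p = 0.403). The sign of the main value turned to -0.37 without ICC-MY replicate 1, to -0.24 under quantile normalization, to -0.25 with array weights and to -0.32 with probe sets averaged. The calls against tissue rested on few arrays. For ICC-DMP the adjusted p was 0.171 without tunica muscularis replicate 1 (difference 1.35), 0.0822, 0.0995 and 0.0945 without ICC-DMP replicate 1, 2 or 3, and 0.0622 with a variance trend. For ICC-MY it was 0.155 with the first tissue array left out (1.29), 0.0834 and 0.0877 without ICC-MY replicate 2 or 3, and between 0.0512 and 0.11 without an ICC-DMP array, with a variance trend or with these groups fitted alone. For the mean of both classes the difference of 2.06 (SE 0.44, adjusted p = 0.0177) became 1.32 (adjusted p = 0.136) without tunica muscularis replicate 1.

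**Figure D2:**
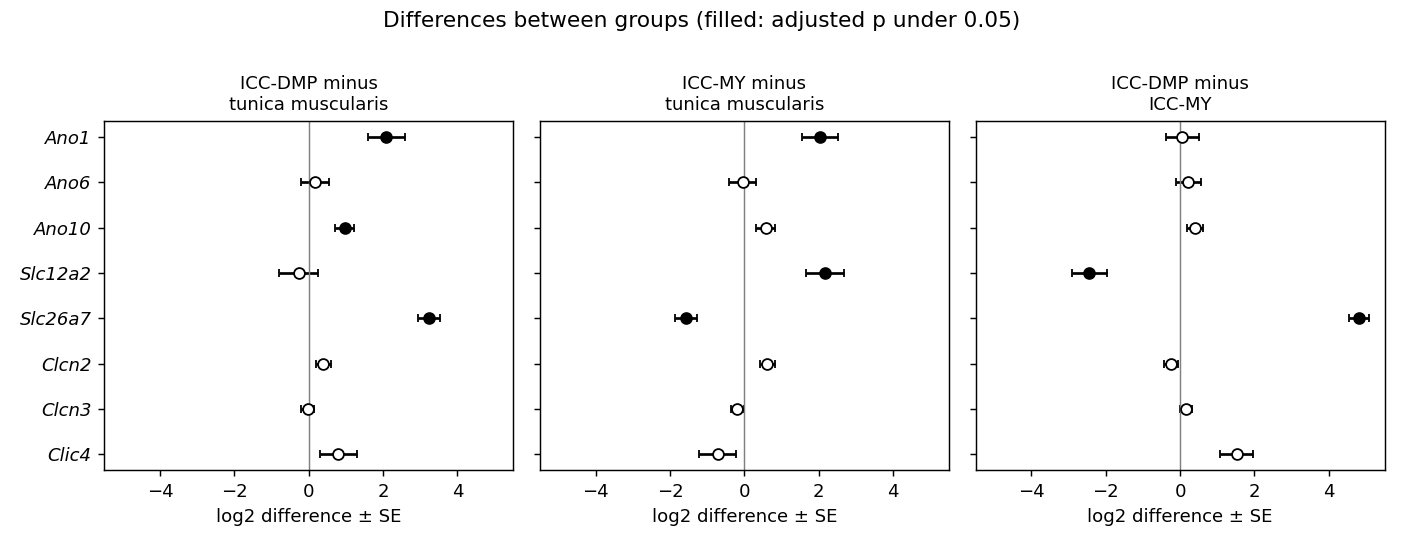
Log2 difference and its standard error (horizontal axes) of each gene for ICC-DMP minus tunica muscularis, ICC-MY minus tunica muscularis and ICC-DMP minus ICC-MY; filled points have an adjusted p under 0.05. Ano1 is filled against tissue in both classes and near 0 between them, Slc26a7 is filled in all 3 panels, and Slc12a2 is filled in the panels that hold ICC-MY.

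Slc12a2, which encodes the NKCC1 cotransporter that loads cells with chloride, was high in ICC-MY. Its main probe set read 10.07, 10.33 and 9.95 in ICC-DMP, 11.68, 13.30 and 12.68 in ICC-MY, and 9.64 and 11.13 in tunica muscularis. All 3 ICC-MY arrays lay above every other array, and the ICC-DMP arrays lay between the tissue arrays. Slc12a2 was 4.49-fold higher in ICC-MY than in tissue (2.17, SE 0.52, adjusted p = 0.0273) and 5.41-fold lower in ICC-DMP than in ICC-MY (-2.44, SE 0.47, adjusted p = 0.0136). Against tissue, ICC-DMP gave -0.27 (SE 0.52, adjusted p = 0.875).

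The dimmer Slc12a2 probe sets separated the groups more widely. The ICC-MY values of the main probe set lie near the top of the arrays' range, and the part of this in its smaller differences was not tested. Probe set 1448780_at read 6.90, 6.89 and 6.99 in ICC-DMP, 10.63, 11.33 and 11.37 in ICC-MY, and 8.18 and 7.95 in tissue. It fell by 4.18 in ICC-DMP against ICC-MY (SE 0.21, adjusted p = 3.5e-05), was higher in ICC-MY than in tissue by 3.05 (SE 0.23, adjusted p = 0.000101), and was lower in ICC-DMP than in tissue (-1.14, SE 0.23, adjusted p = 0.0135). Probe set 1417623_at read 6.73, 6.75 and 6.24 in ICC-DMP, 10.06, 11.32 and 11.31 in ICC-MY, and 7.15 and 7.31 in tissue. Its difference was -4.32 between ICC-DMP and ICC-MY (SE 0.34, adjusted p = 0.000188), 3.67 for ICC-MY (SE 0.37, adjusted p = 0.000465) and -0.65 for ICC-DMP (SE 0.37, adjusted p = 0.396) against tissue. So all 3 probe sets were called in ICC-MY against tissue and between the classes, where 12.6% and 7.41% of all probe sets were, and 1 of the 3 was called as lower in ICC-DMP than in tissue. The mean over 8 endothelial markers was also lower in ICC-DMP (3.57 to 3.75) than in ICC-MY (4.16 to 5.20), with 4.87 and 5.21 in tissue and 4 of the 8 markers called as lower in ICC-DMP (3.30% of all genes were). Its part in the Slc12a2 values was not tested.

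The mean of both ICC classes hides this contrast. Both dimmer probe sets were called as higher in this mean than in tissue, though ICC and tissue arrays overlapped. Probe set 1448780_at gave 0.96 (SE 0.21, adjusted p = 0.017) and 1417623_at 1.51 (SE 0.34, adjusted p = 0.0199). For the main probe set the mean was above tissue by 0.95 (SE 0.47, adjusted p = 0.28). Slc12a2 passed there with the replicate number as a block (0.96, adjusted p = 0.0445), quantile normalization (0.95, 0.0035) or probe sets averaged (1.14, 0.0358). Leaving out ICC-DMP replicate 1 or 3 (adjusted p = 0.0645 and 0.0584) or the third ICC-MY array (0.0533) ended the call between the classes. That of ICC-MY against tissue ended when the first tissue array (1.42, adjusted p = 0.152), an ICC-MY array (0.0698 for replicate 2 and 0.0778 for replicate 3) or an ICC-DMP array (0.0567 for replicate 1 and 0.0521 for replicate 2) was left out, and with these groups alone (0.106). With both narrow-range arrays left out the main probe set was called as lower in ICC-DMP than in tissue (-1.01, adjusted p = 0.0422), and without tunica muscularis replicate 2 its sign turned (0.48, adjusted p = 0.679).

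Slc26a7, an anion exchanger of the SLC26 family studied mostly in kidney, stomach and thyroid, was high in ICC-DMP. It read 8.82, 8.77 and 8.0 in ICC-DMP, 3.94, 3.74 and 3.49 in ICC-MY, and 4.98 and 5.61 in tunica muscularis. The 3 groups did not overlap, with tissue between the classes. Slc26a7 was higher in ICC-DMP than in ICC-MY by 4.81 (SE 0.27, adjusted p = 3.3e-05) and 9.43-fold higher than in tissue (3.24, SE 0.30, adjusted p = 0.000247). In ICC-MY it was below tissue (-1.57, SE 0.30, adjusted p = 0.00911). The ICC-MY values lie under the medians of their arrays (4.31, 4.22 and 4.22) and are not shown to be above background, so no fold is given against them.

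Both calls that hold ICC-DMP passed under all 17 alternatives, with differences of 2.52 to 5.07 against ICC-MY and 1.76 to 3.55 against tissue. The lower level in ICC-MY was lost without tunica muscularis replicate 2 (-1.26, adjusted p = 0.0679). The mean of both classes, which joins a high and a low class, differed from tissue by 0.83 (SE 0.27, adjusted p = 0.086), or by 1.02 with the replicate block (adjusted p = 0.00917). A second probe set, 1425841_at, stayed between 3.04 and 3.53 on all 8 arrays and passed in 0 of the 4 comparisons; by limma it gave 0.22 (SE 0.12, adjusted p = 0.436, unadjusted 0.106) for ICC-DMP minus ICC-MY. With both probe sets averaged, the value was 2.52 between the classes and -0.75 in ICC-MY against tissue (adjusted p = 0.0241). The smooth muscle marker mean was also higher in ICC-DMP (9.32 to 9.55) than in ICC-MY (6.78 to 7.45), with 10.01 and 10.89 in tissue, and its part in the Slc26a7 values was not tested.

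**Figure D3:**
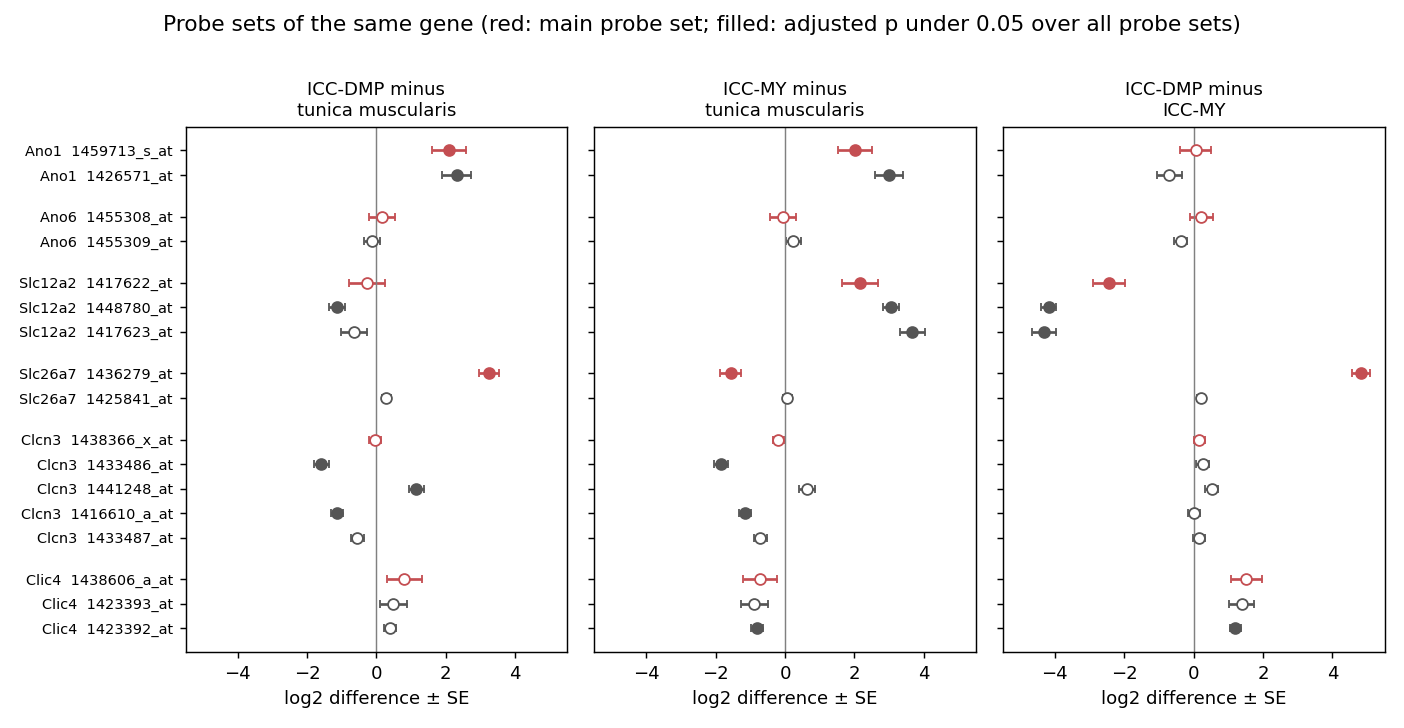
Log2 difference and its standard error (horizontal axes) of every probe set of the 6 genes with several, for the same 3 comparisons; red marks the main probe set and filled points have an adjusted p under 0.05 over all probe sets. The probe sets of Ano1, Slc12a2 and Clic4 lie on the same side of 0 within each panel wherever they are filled, and those of Clcn3 lie on both sides against tissue.

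Among the other anoctamins, Ano10 followed Ano1. ANO10 is a family member of intracellular membranes whose loss causes a recessive ataxia in humans. Its single probe set read 7.77, 7.88 and 7.96 in ICC-DMP, 7.04, 7.66 and 7.71 in ICC-MY, and 6.64 and 7.16 in tissue. All ICC-DMP arrays lay above the others, and ICC-MY replicate 1 lay between the tissue arrays. Ano10 was 1.96-fold higher in ICC-DMP than in tissue (0.97, SE 0.25, adjusted p = 0.0397), with 0.57 in ICC-MY (SE 0.25, adjusted p = 0.196). The 2 genes correlated at r = 0.921 over the 8 arrays, which share groups and the low readings of the narrow-range arrays.

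Ano10 sat close to the threshold. Leaving out any 1 ICC-DMP array (adjusted p = 0.0992, 0.118 and 0.124), the second ICC-MY array (0.0552) or the first tissue array (0.71, adjusted p = 0.221) ended the ICC-DMP call, as did arrays centred on their medians (0.0658). The mean of both classes gave 0.77 (SE 0.22, adjusted p = 0.0562), and 0.69 with the replicate block (adjusted p = 0.0215). Without ICC-MY replicate 1, Ano10 was called as higher in ICC-MY too (0.79, adjusted p = 0.0343) and in the mean of both classes (0.88, adjusted p = 0.0107).

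Ano6, which encodes a calcium-activated phospholipid scramblase that also conducts ions, was near the tissue level. It read 9.94, 10.15 and 10.45 in ICC-DMP, 9.24, 10.30 and 10.35 in ICC-MY, and 9.63 and 10.39 in tissue. The 3 groups overlapped, and the lowest arrays of ICC-MY and tissue were those of narrow range. The differences were 0.17 in ICC-DMP (SE 0.37, adjusted p = 0.891) and -0.05 in ICC-MY (SE 0.37, adjusted p = 0.966) against tissue, and the sign of both turned under some alternatives. Its other probe set, 1455309_at, ran the opposite way over the arrays (r = -0.581) and also passed in 0 comparisons, with differences of -0.13 (SE 0.22, unadjusted p = 0.57) and 0.24 (SE 0.22, unadjusted p = 0.299) by limma.

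The CLC members were not called on their main probe sets. Clcn2, a chloride channel opened by hyperpolarisation that has been described in ICC of mice, read 3.42, 3.33 and 3.83 in ICC-DMP, 3.61, 3.85 and 3.82 in ICC-MY, and 3.32 and 2.96 in tissue. Every ICC array lay above both tissue arrays, as they did for 6.23% of all genes, but by little in ICC-DMP replicate 2. The difference was 0.39 (SE 0.20, adjusted p = 0.337) in ICC-DMP and 0.62 (SE 0.20, adjusted p = 0.0856) in ICC-MY, and the ICC-MY value passed with a variance trend (adjusted p = 0.0307) or with both narrow-range arrays left out (0.88, adjusted p = 0.0403).

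Clcn3, a chloride and proton exchanger of endosomes and synaptic vesicles, gave different answers on its 5 probe sets. The brightest, 1438366_x_at, read 6.90, 7.15 and 7.36 in ICC-DMP, 6.87, 6.89 and 7.17 in ICC-MY, and 7.10 and 7.22 in tissue, with differences of -0.03 (SE 0.18, adjusted p = 0.972) and -0.19 (SE 0.18, adjusted p = 0.646) for ICC-DMP and ICC-MY. Its groups overlapped. Probe set 1433486_at read 5.65, 5.64 and 5.72 in ICC-DMP, 5.08, 5.46 and 5.69 in ICC-MY, and 7.0 and 7.51 in tissue. It was lower in ICC-DMP by -1.59 (SE 0.21, adjusted p = 0.00175) and in ICC-MY by -1.85 (SE 0.21, adjusted p = 0.000887).

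Probe set 1416610_a_at was lower in both classes as well, with -1.14 in ICC-DMP (SE 0.17, adjusted p = 0.00317) and -1.15 in ICC-MY (SE 0.17, adjusted p = 0.00336). In contrast, 1441248_at read 6.25, 6.24 and 6.40 in ICC-DMP, 5.59, 6.01 and 5.73 in ICC-MY, and 4.82 and 5.48 in tissue, and was higher in ICC-DMP by 1.15 (SE 0.22, adjusted p = 0.00967). The dimmest, 1433487_at, was between 2.59 and 3.75 throughout and gave -0.55 (SE 0.19, adjusted p = 0.127) and -0.71 (SE 0.19, adjusted p = 0.0503). With all 5 averaged, Clcn3 was called as lower in ICC-MY (-0.65, adjusted p = 0.0301) and in the mean of both classes (-0.54, adjusted p = 0.0406). The enteric neuron marker mean was also lower in both ICC classes than in tissue (8 of 9 markers lower in each, against 7.32% and 9.78% of all genes), and its part in the Clcn3 values was not tested. No single direction for Clcn3 is given by these probe sets.

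Clic4, which encodes a CLIC family protein found in soluble and membrane-bound forms, was set apart mainly between the classes. It read 11.80, 12.35 and 12.16 in ICC-DMP, 9.81, 11.18 and 10.76 in ICC-MY, and 10.55 and 12.06 in tunica muscularis. Every ICC-DMP array lay above every ICC-MY array, as for 13.9% of all genes, and the tissue arrays overlapped both classes. The difference of ICC-DMP minus ICC-MY was 1.52 (SE 0.45, adjusted p = 0.086), which did not pass. It passed under 9 of 17 alternatives, among them the replicate number as a block (1.52, adjusted p = 0.000982), quantile normalization (1.27, 0.000422), array weights (1.24, 0.0246) and both narrow-range arrays left out (1.13, 0.00968). Over all 17 the difference ran from 1.13 to 1.82, with an adjusted p of up to 0.271. Between the classes, leaving out either tissue array gives the same fit as these groups alone (1.52 for Clic4), so these are not separate alternatives.

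The other Clic4 probe sets ran the same way between the classes. Probe set 1423392_at read 7.67, 7.76 and 7.42 in ICC-DMP, 6.21, 6.44 and 6.61 in ICC-MY, and 7.09 and 7.37 in tissue. It was 2.29-fold higher in ICC-DMP than in ICC-MY (1.20, SE 0.16, adjusted p = 0.00264) and lower in ICC-MY than in tissue (-0.81, SE 0.18, adjusted p = 0.0201). Probe set 1423393_at gave 1.38 between the classes (SE 0.35, adjusted p = 0.052). Against tissue the main probe set gave 0.80 in ICC-DMP (SE 0.50, adjusted p = 0.456) and -0.72 in ICC-MY (SE 0.50, adjusted p = 0.472), or -0.78 in ICC-MY with the replicate block (adjusted p = 0.049). The smooth muscle marker mean was also higher in ICC-DMP than in ICC-MY, but highest in tissue (10.01 and 10.89). Of its 10 markers, 8 were higher in ICC-DMP (5.36% of all genes were). The mean over 8 PDGFRA cell and fibroblast markers ran from 9.05 to 9.32 in ICC-DMP, 8.32 to 8.95 in ICC-MY and 9.31 to 10.09 in tissue. Of these, 1 was called between the classes, Pdgfra, higher in ICC-DMP by 2.1. The part of either mean in the Clic4 and Slc26a7 values was not tested.

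Beyond the 8 genes, 61 other genes of chloride transport were listed and 52 were measured: other anoctamins, CLC and CLIC genes, other anion channels, cation-chloride cotransporters and their kinases, and SLC26 and SLC4 exchangers. In ICC-DMP 2 were higher and 2 lower than in tissue (7.7%, against 11.0% of all genes), and in ICC-MY 7 were higher and 2 lower (17.3%, against 13.8%). In the mean of both classes 5 were higher and 3 lower (15.4%, against 13.0%), and between the classes 1 was higher and 2 lower in ICC-DMP (5.8%, against 8.67%). These shares, which join both directions, lie near the background, and the list's median differences were -0.02, 0.02, 0.03 and -0.09 in the same order of comparisons. By direction, 3.72% of all genes were higher in ICC-DMP, 4.05% in ICC-MY and 3.69% in the mean of both classes. The 7 higher calls in ICC-MY and the 5 in the mean, of 52 genes, lay above those shares. The lower calls against tissue lay below theirs (7.32%, 9.78% and 9.32%). Of the 4 other anoctamins and 7 other CLC genes measured, 0 passed in limma in any of the 4 comparisons.

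Of 7 other cotransporters measured, 1 was called as higher for ICC-DMP and 3 for ICC-MY against tissue, and of 6 kinases 0 and 1. Of all genes, 3.72% were called as higher in ICC-DMP and 4.05% in ICC-MY. Slc12a7, the potassium-chloride cotransporter KCC4, read 8.21, 8.01 and 8.52 in ICC-DMP, 8.36, 9.22 and 9.61 in ICC-MY, and 6.61 and 7.10 in tissue. All ICC arrays lay above tissue, and Slc12a7 was higher in ICC-MY by 2.21 (SE 0.35, adjusted p = 0.00372; 1.46 with probe sets averaged) and in ICC-DMP by 1.39 (SE 0.35, adjusted p = 0.0404). The ICC-DMP call was lost without any 1 of 6 arrays (ICC-DMP replicates 1, 2 and 3, ICC-MY replicate 2 and both tissue arrays), and with arrays centred on their medians or probe sets averaged, with an adjusted p of 0.0602 to 0.207, and that of the mean of both classes without tunica muscularis replicate 1 (1.56, adjusted p = 0.061).

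Wnk2, a kinase of the WNK family that regulates cation-chloride cotransport, read 7.46, 7.23 and 7.74 in ICC-DMP, 8.63, 9.17 and 9.61 in ICC-MY, and 6.90 and 7.21 in tissue. The ICC-MY arrays lay above all others. Wnk2 was higher in ICC-MY than in tissue by 2.08 (SE 0.29, adjusted p = 0.00172) and lower in ICC-DMP than in ICC-MY (-1.66, SE 0.26, adjusted p = 0.00458), as Slc12a2 was. Both calls held under all 17 alternatives, with smaller differences when probe sets were averaged (1.01 and -0.88), and that of the mean of both classes was lost without tunica muscularis replicate 1 (1.09, adjusted p = 0.106) and with probe sets averaged (0.57, adjusted p = 0.0586). Slc12a5, which encodes the chloride extruder KCC2 best known in neurons, read 4.40, 4.38 and 4.79 in ICC-DMP, 5.86, 5.81 and 6.58 in ICC-MY, and 4.73 and 4.82 in tissue.

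The ICC-MY arrays were again the highest for Slc12a5 (the endothelial marker mean was also higher in ICC-MY than in ICC-DMP, and its part in the Wnk2 and Slc12a5 values was not tested), with -1.56 for ICC-DMP minus ICC-MY (SE 0.23, adjusted p = 0.0035) and 1.30 for ICC-MY against tissue (SE 0.26, adjusted p = 0.0107, or 0.0536 with the first tissue array left out). With its probe sets averaged these were -0.79 and 0.66 (adjusted p = 0.016 and 0.039). Slc4a3, an exchanger of chloride for bicarbonate, was higher in ICC-MY than in tissue by 1.8 (SE 0.32, adjusted p = 0.00694; 1.10 with probe sets averaged), with 0.97 in ICC-DMP (SE 0.32, adjusted p = 0.109). In the mean of both classes its call (1.39, adjusted p = 0.0156) was lost without either tissue array (0.0714 and 0.0919) and with probe sets averaged (0.8, adjusted p = 0.0507). Slc12a9 was higher in ICC-MY by 0.84 (SE 0.23, adjusted p = 0.049), a call lost under 12 of 17 alternatives.

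Of the other anion channels, Pacc1, the proton-activated chloride channel, read 8.69, 8.51 and 8.58 in ICC-DMP, 7.55, 8.15 and 8.11 in ICC-MY, and 6.67 and 7.16 in tissue. It was higher than tissue in ICC-DMP by 1.68 (SE 0.23, adjusted p = 0.00204) and in ICC-MY by 1.02 (SE 0.23, adjusted p = 0.0202). The ICC-MY call did not pass with ICC-MY replicate 2 or 3 left out (0.0633 and 0.0637), with the first tissue array left out (0.115) or with these groups alone (0.091), and with its 5 probe sets averaged ICC-DMP gave 0.24 (adjusted p = 0.437) and ICC-MY 0.56 (adjusted p = 0.0476). Lrrc8a, the obligatory subunit of the volume-regulated anion channel, was higher in ICC-MY than in tissue by 1.21 (SE 0.20, adjusted p = 0.00492), with 0.70 in ICC-DMP (SE 0.20, adjusted p = 0.0705). Its call in the mean of both classes (0.95, adjusted p = 0.0104) was lost without tunica muscularis replicate 1 (0.72, adjusted p = 0.0866).

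Lrrc8c, a partner subunit of that channel, ran with ICC-DMP. It read 10.64, 10.97 and 10.73 in ICC-DMP, 8.92, 9.73 and 9.25 in ICC-MY, and 9.44 and 10.08 in tissue. The ICC-DMP arrays lay above all others, and Lrrc8c was higher in ICC-DMP than in ICC-MY by 1.48 (SE 0.25, adjusted p = 0.00661), with 1.02 against tissue (SE 0.28, adjusted p = 0.0514). Clic3 read 3.07, 3.06 and 3.18 in ICC-DMP, 3.03, 3.18 and 3.32 in ICC-MY, and 5.13 and 4.07 in tissue, and fell by 1.5 in ICC-DMP (SE 0.28, adjusted p = 0.0102) and by 1.43 in ICC-MY (SE 0.28, adjusted p = 0.0105). With the first tissue array left out the differences were -0.97 and -0.90, both still called, and the ICC-MY call was lost with only these groups fitted (adjusted p = 0.0608). The mesothelial marker mean was also lower in both ICC classes (3.80 to 4.10 over the 6 ICC arrays, against 8.67 and 8.87 in tissue), and its part in the Clic3 values was not tested.

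The remaining calls were small decreases. Ttyh2, a member of the tweety family, differed by -0.82 in ICC-DMP (SE 0.21, adjusted p = 0.04), and Slc26a4, the exchanger pendrin, by -0.84 in ICC-MY (SE 0.23, adjusted p = 0.0464). The first call was lost under 8 of 17 alternatives and the second under 8 of 16, among them without tunica muscularis replicate 2 (-0.56, adjusted p = 0.191, for Ttyh2 and -0.52, adjusted p = 0.254, for Slc26a4). Of the 11 other genes called, 8 had more than 1 probe set, and for 3 of them (Pacc1, Lrrc8c and Wnk2) another probe set passed in the same direction in at least 1 comparison. In 0 of the 8 did another pass in the opposite direction.

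**Figure D4:**
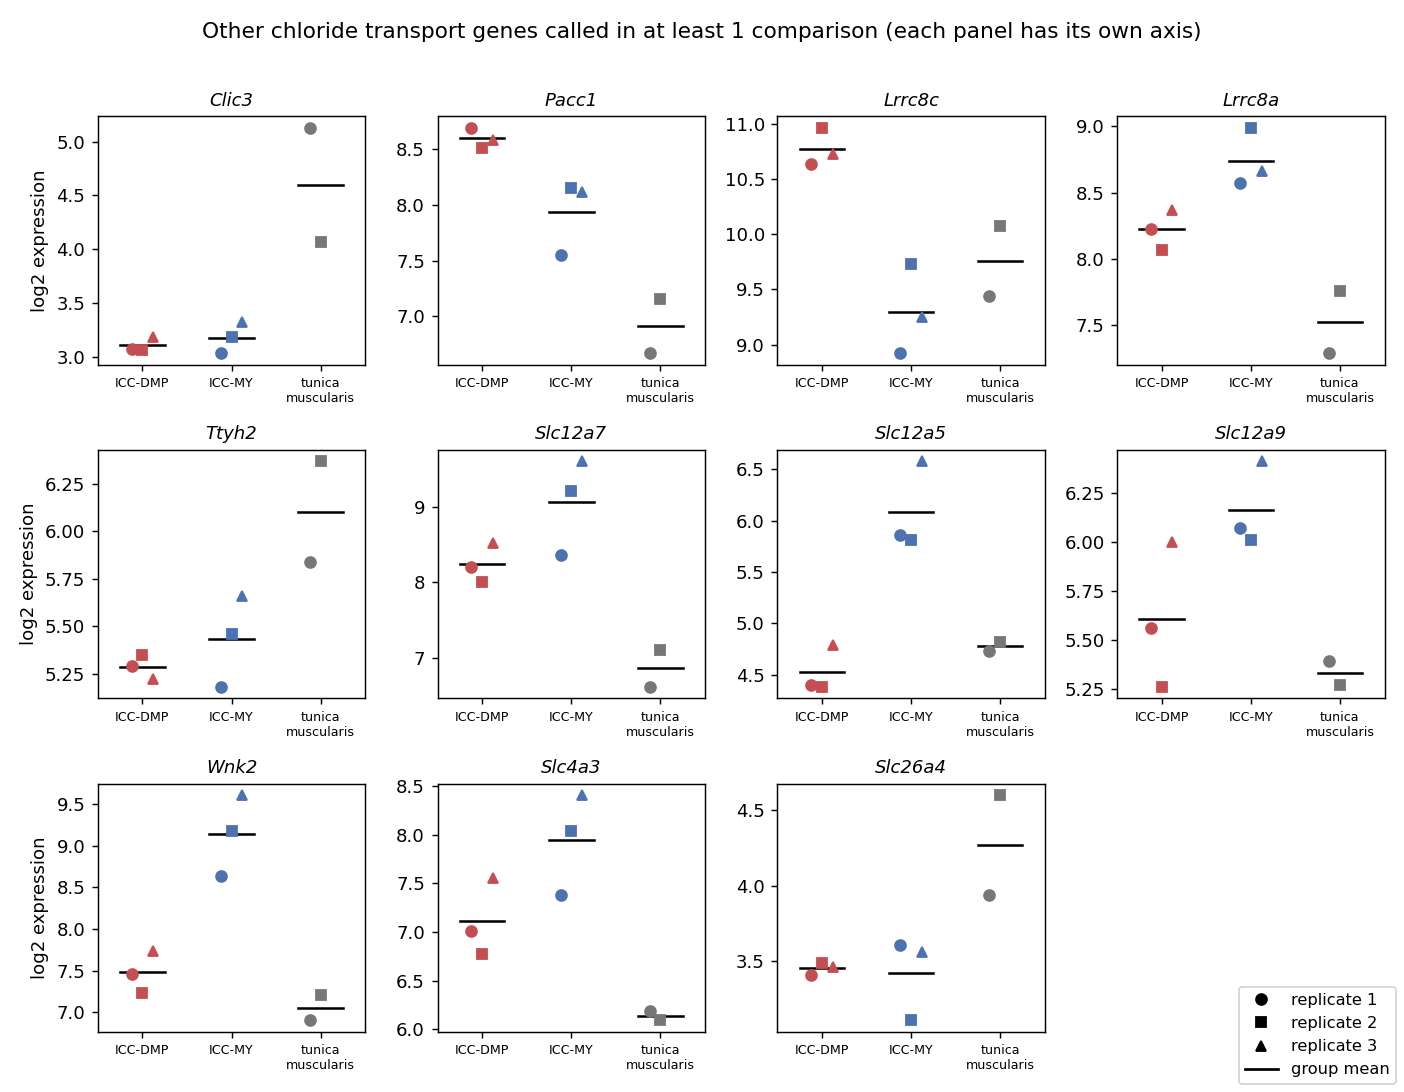
Log2 expression (vertical axes, one scale per panel) of the 11 other chloride transport genes called in at least 1 comparison, on each array of ICC-DMP, ICC-MY and tunica muscularis; symbols mark the replicate number and black bars the group mean. Wnk2 and Slc12a5 are highest on the 3 ICC-MY arrays and Lrrc8c on the 3 ICC-DMP arrays, while Clic3 is highest on the tissue arrays.

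The genes whose values ran most closely with each member were sought among genes with an SD over arrays of at least 0.5. The measure was Pearson's r over the 8 arrays, which share 3 groups and the low readings of the narrow-range arrays, so it is a description. For Ano1 they were Dhrs7 (0.991), Prkar2b (0.991), Rragd (0.983), Vgll4 (0.980) and Msi2 (0.980). Prkar2b encodes a regulatory subunit of the cyclic AMP-dependent protein kinase, and Rragd a GTPase of amino acid sensing. Ano1 and Kit correlated at 0.951.

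For Slc12a2 the closest were Atp2b1 (0.988), Rnf141 (0.988) and Rab28 (0.987). Atp2b1, a calcium pump of the plasma membrane, differed by -2.03 between ICC-DMP and ICC-MY. For Slc26a7 they were Vamp5 (0.996), Pcsk6 (0.995) and Id1 (0.995), which differed by 2.83, 2.74 and 4.65 between ICC-DMP and ICC-MY. Slc12a2 and Slc26a7 themselves ran in opposite directions (r = -0.741).

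For Clic4 the closest were Ptch1 (0.987), the Hedgehog receptor, Pxylp1 (0.986) and Tsc22d1 (0.984), and Clic4 and Slc26a7 correlated at 0.775. For Ano10 they were Nxf1 (0.989), Mtx3 (0.989) and Egln3 (0.984), and for Ano6 Rnf187 (0.994), Pcyox1 (0.991) and Bnip2 (0.986). For Clcn2 they were Slc4a3 (0.921), Tmem150a (0.905) and Acacb (0.891), and for Clcn3 Sesn1 (0.842), Ddit4 (0.840) and Syngr2 (0.839). The SD of the main Clcn3 and Clcn2 probe sets over the arrays was only 0.18 and 0.32, so their likeness rests on small differences.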

How the data were processed

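The deposited values are log2 expression per probe set, as made by the authors. The submitters' processing notes list RMA and limma, with no version or role. Per the labels' protocols, about 50 ng of total RNA went through 2 rounds of amplification. Of 45101 probe sets, 64 controls were left out. Platform annotation named 1 gene for 34945 of the rest, several for 932 and none for 9160, which gave 18193 genes. Array medians ran from 4.18 to 4.31, and no further normalization was applied. Differences were fitted with limma 3.58.1 in R 4.3.3 (all 8 arrays, 3 groups, 5 residual degrees of freedom), with Benjamini-Hochberg adjustment over all genes, or over 45037 probe sets for single probe sets. Errors are standard errors of the fit, and p-values are adjusted unless called unadjusted. The titles call samples biological replicates but do not tie them to separate animals, so p-values measure the spread between samples.

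Groups came from the titles. Samples with the same replicate number deviated together from their group means (r over genes 0.289, 0.5 and 0.387 for the 3 ICC-DMP and ICC-MY pairs, and 0.155 to 0.608 for pairs with tissue). Pairs with different numbers ran from -0.608 to 0.169. The deviations of the 2 tissue arrays are mirror images, so the pairs with tissue say little about pairing. The main fit, with its errors, p-values, calls and shares of all genes, does not use these numbers and treats the samples as unpaired. A fit with the number as a block was run as an alternative, and its values are given where they change a call. It called more genes in each comparison. Against tissue these were 2853 in place of 2009 for ICC-DMP and 3537 in place of 2516 for ICC-MY. For the mean of both classes they were 3191 in place of 2366. Other alternatives were quantile normalization, median centring, array weights, a variance trend, dim genes left out, averaged probe sets, only the groups compared, and arrays left out. The members and lists were chosen with earlier results of these data known. Other chloride genes are named if called in at least 1 of the 4 comparisons with groups that do not overlap, at most 4 per list. For likeness, 5 genes were named for Ano1 and 3 for each other member, leaving out provisional and clone names (RIKEN, Gm, LOC, EST). The fit was tested on simulated data. The number of arrays limits the precision.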

Additional observations from a re-analysis of the deposited data

Results flagged for a closer look

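The difference from tunica muscularis was not the same in the ICC classes for 2 of the 8 genes, by the test of that difference itself (ICC-DMP minus ICC-MY, limma). Of all genes, 8.67% were called in that comparison (5.36% higher and 3.30% lower). Slc26a7 differed by 4.81 (SE 0.27, adjusted p = 3.3e-05): it was above tissue in ICC-DMP (3.24) and below it in ICC-MY (-1.57), on every array. Slc12a2 differed by -2.44 (SE 0.47, adjusted p = 0.0136, and 0.0533 to 0.0645 without ICC-DMP replicate 1 or 3 or ICC-MY replicate 3), with -0.27 in ICC-DMP and 2.17 in ICC-MY against tissue.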

How the results depend on the processing

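Under the alternatives, 764 of the values for the members and the other genes named kept their direction and their side of the threshold, 95 no longer passed, 31 newly passed and 35 changed sign. Quantile normalization called 3746 genes for the mean of both ICC classes against tissue, 3129 for ICC-DMP, 3911 for ICC-MY and 2557 between the classes, against 2366, 2009, 2516 and 1577 as reported. With dim genes left out, which leaves fewer genes to test, the first 3 were 1389, 1109 and 1629, and with only the groups compared ICC-MY had 1520. Between the classes the replicate block gave 2617, array weights 2646 and leaving out both narrow-range arrays 2630 (1228 higher and 1402 lower). Leaving out 1 array gave 1747 to 2971, 1264 to 2480, 1965 to 2960 and 991 to 1840 genes, with the lowest counts for ICC-DMP (1264 and 1296) and between the classes (991 and 996) without ICC-DMP replicate 1 or 2.

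Sign changes were in values that had not passed. For the mean of both classes against tissue, Ano6 was -0.02 under quantile normalization, -0.10 with the replicate block, -0.14 without both narrow-range arrays and -0.32 to 0.45 with 1 array left out. Clic4 there was -0.08, -0.02 and -0.52 under the same settings, -0.13 with probe sets averaged and -0.72 to 0.80 with 1 array left out. For ICC-DMP against tissue, Ano6 was -0.0017 under quantile normalization, -0.21 without both narrow-range arrays and -0.21 to 0.56 with 1 left out, where Slc12a2 was -1.01 to 0.48 and Clcn3 -0.14 to 0.09. For ICC-MY against tissue, Ano6 was 0.20 with array weights, 0.10 with probe sets averaged and -0.43 to 0.34 with 1 left out, and Clic4 -1.48 to 0.04. Between the classes, Ano1 was -0.24 (quantile), -0.25 (weights), -0.32 (averaged), -0.37 (both narrow-range arrays out) and -0.37 to 0.31 (1 left out), and Ano6 -0.09 (weights), -0.08 (averaged), -0.14 (both out) and -0.14 to 0.41 (1 left out). The cause was not tested. Beyond the values given beside the results, the replicate block changed no other call among the members' main probe sets and those comparisons in which another named gene had passed. Its values for the other comparisons of those genes are not reported, and it was not run for single probe sets. Clcn2 and other dim genes have no value with dim genes left out. Signal over background limits Clcn2, Clic3 and Slc26a4, whose ICC values lie below the array medians, and Slc26a7 in ICC-MY.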

Other observations

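Cftr, the cyclic AMP-activated chloride channel of epithelia, was looked at after its values were seen. It read 2.52, 2.58 and 2.60 in ICC-DMP, 2.76, 2.54 and 2.57 in ICC-MY, and 2.98 and 4.43 in tunica muscularis. Every ICC array lay below both tissue arrays, as for 13.7% of all genes, but the mean of the ICC classes did not pass in limma (-1.11, SE 0.32, adjusted p = 0.0583). The ICC values lie below the array medians (4.18 to 4.31) and are not shown to be above background. The tissue array with the higher Cftr value also had the higher epithelial marker mean (6.42, against 4.80), and the part of that mean in the Cftr values was not tested.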
